A study of Mus musculus with 6 samples.

Results

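The 40 genes described here are Wnt ligands, Wnt receptors, the proteins that carry or restrain the Wnt signal, and genes that the pathway switches on as feedback. They were taken by gene symbol from a list of pathway members, and all 40 were found among the 35523 genes to which transcripts were assigned and among the 17096 genes with enough counts to be tested. They comprise 12 receptors and co-receptors, 5 ligands, 4 secreted antagonists, 4 regulators of receptor turnover, 8 cytoplasmic proteins, 3 TCF/LEF transcription factors and 4 feedback targets.

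RNA-Seq had been carried out on the whole forebrain of C57BL/6 mice at postnatal day 20, with 3 Slc13a4+/- mice (animals Nas2Del_Het_1024, Nas2Del_Het_1025 and Nas2Del_Het_1027) and 3 wild-type mice (animals Nas2Del_WT_1016, Nas2Del_WT_1018 and Nas2Del_WT_1026). The labels name the allele Nas2Del, and which part of the gene it lacks was not stated in the sources. Slc13a4 encodes a sodium-coupled sulfate transporter, and the study asked which transcripts differ when its dose is reduced during postnatal brain development. The Slc13a4+/- mice keep a wild-type allele, no group carried another treatment in the labels, and litter and sex are not in the labels.

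Wnt proteins bind a Frizzled receptor together with Lrp5 or Lrp6 at the cell surface, Dishevelled proteins then disable a complex of Axin, Apc and Gsk3b, and beta-catenin, the product of Ctnnb1, accumulates and acts with TCF/LEF factors in the nucleus. Axin2, Nkd1, Lef1 and Notum are widely used as readouts because the pathway induces them, and Axin2, Nkd1 and Notum in turn restrain it. In the brain, Wnt7a and Wnt7b are known for their part in vessel growth and the blood-brain barrier, and sulfated proteoglycans at the cell surface are known to bind Wnt proteins.

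The coding starts of Nkd1 are shown because the gene total was lower in all 3 Slc13a4+/- mice and its annotated transcripts do not encode the same protein start. Nkd1-201 begins its coding sequence in an exon at chr8:88521507-88521531 and Nkd1-202 at chr8:88583256-88583309 (GRCm38, plus strand, GENCODE M21). The first 60 coding bases follow, with the start codon in capitals.
Nkd1-201: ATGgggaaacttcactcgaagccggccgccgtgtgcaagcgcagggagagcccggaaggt
Nkd1-202: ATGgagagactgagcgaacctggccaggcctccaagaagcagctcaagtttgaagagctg
Nkd1-203 has the same coding sequence as Nkd1-202, of 1101 bases, and that sequence is the end of the Nkd1-201 coding sequence, which has 312 further bases at its start.

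The coding starts of Wnt7b are shown because the share of its counts on its leading transcript did not overlap between the genotypes. This held for 4 of the 28 listed genes with such a share, beside 13.7% of all genes with one. Wnt7b-201 and Wnt7b-202 begin in the same exon, which starts coding at chr15:85581475 and chr15:85581450 on the minus strand, and Wnt7b-204 begins in another exon at chr15:85577508-85577590. The capitals again mark the start codon.
Wnt7b-201: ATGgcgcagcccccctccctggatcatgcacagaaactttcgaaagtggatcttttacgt
Wnt7b-202: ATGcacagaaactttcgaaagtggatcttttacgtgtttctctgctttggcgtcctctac
Wnt7b-204: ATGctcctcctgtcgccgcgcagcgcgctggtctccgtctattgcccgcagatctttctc
The coding sequences of Wnt7b-202 and Wnt7b-204 share their last 976 bases.

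TCF/LEF factors bind the core motif CTTTGA, which reads TCAAAG on the other strand. RefSeq start-site windows (GRCm38.p6), cut here to the 250 bases before the start site, were held for 24 of the 40 genes, and the motif was found on either strand in those of 3 genes, Fzd1, Gsk3b and Lef1. Over all genes with a window, 15.8% held it. Of the feedback targets, Axin2 and Nkd1 had no match in their windows, and no window was held for Notum. The other windows of Lef1, among them those before its upstream start sites, held no match either. The window with a pair of matches lies before an internal start site of Lef1, at chr3:131156044-131156293 on the plus strand. It is shown with the matches in capitals because Lef1 is both a member of this transcription factor family and a feedback target.
Lef1: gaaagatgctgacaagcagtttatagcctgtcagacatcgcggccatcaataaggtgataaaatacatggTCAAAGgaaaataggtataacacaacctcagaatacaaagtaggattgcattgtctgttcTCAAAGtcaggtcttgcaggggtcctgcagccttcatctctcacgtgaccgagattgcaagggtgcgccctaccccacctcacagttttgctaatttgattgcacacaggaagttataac

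Library totals were 69260309 to 78070813 estimated counts in Slc13a4+/- mice and 60340337 to 80410582 in wild-type mice. A principal component analysis was run on genes chosen for their wide spread between mice, and its first component held 39.6% of their variance. Wild-type mice formed both ends of that component, with Nas2Del_WT_1026 at -27.7 and Nas2Del_WT_1016 at 20.2. The remaining mice lay from -6.16 (Nas2Del_Het_1027) to 9.70 (Nas2Del_Het_1025). The Y-linked gene Ddx3y was at 105 CPM in wild-type mouse Nas2Del_WT_1016 and at most 0.033 CPM in the others, and the part of sex in the results was not tested. Retained-intron transcripts took 2.03% to 2.45% of the counts in Slc13a4+/- mice and 1.81% to 2.02% in wild-type mice, without overlap. Slc13a4 itself was at 5.60, 6.57 and 5.41 CPM in the Slc13a4+/- mice (Nas2Del_Het_1024, Nas2Del_Het_1025 and Nas2Del_Het_1027) and at 10.4, 9.36 and 8.23 CPM in the wild-type mice (Nas2Del_WT_1016, Nas2Del_WT_1018 and Nas2Del_WT_1026). Every Slc13a4+/- mouse was therefore below every wild-type mouse, with a log2 fold change of -0.67 (SE 0.11) (adjusted p = 0.499 by edgeR, and 0.0024 by DESeq2). Only 1 gene of 17096 (0.00585%) was called by edgeR at an adjusted p under 0.1, the threshold used by the study.

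Levels between genes were compared as TPM, which is scaled by transcript length and to the library total. The 40 genes spanned from 0.50 TPM for Tcf7l1 to 542 TPM for Ctnnb1 (means of 6 mice), with a median of 7.24 TPM. Ctnnb1 and Apc together held 59.9% of the TPM of the 40 genes. A level under 5 TPM was measured for 18 of them and a level over 20 TPM for 8. The coefficient of variation of TPM over the 6 mice had a median of 7.37% and ran from 2.30% for Ctnnb1 to 15.7% for Tcf7l1.

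**Figure D1:**
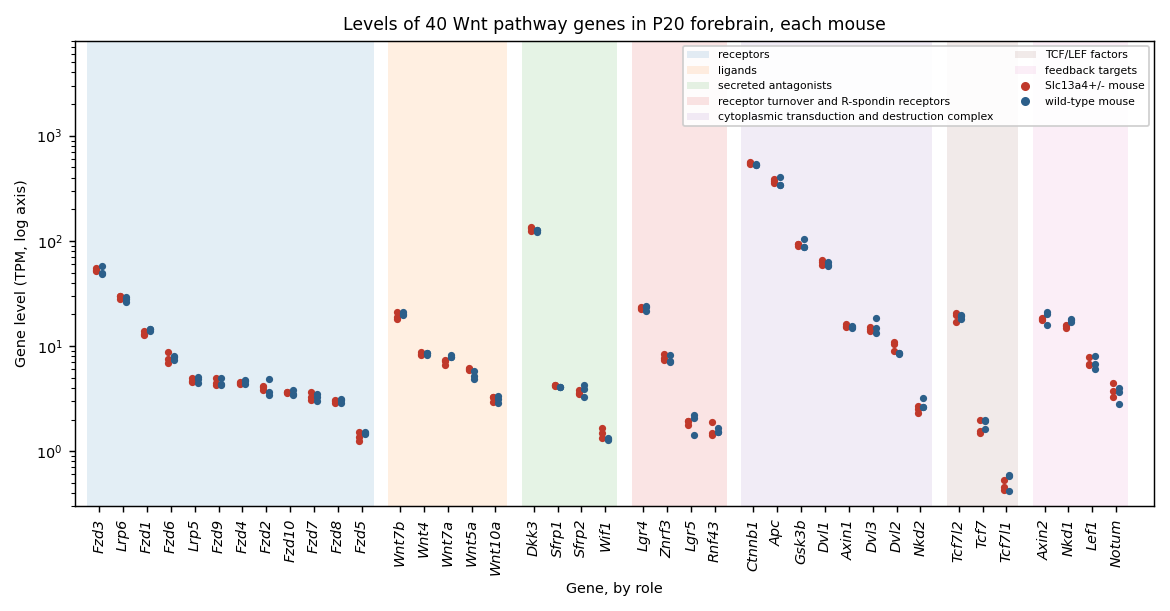
Level of each of the 40 genes in each mouse, in TPM on a log axis, grouped by role and ordered by mean level, with red points for the 3 Slc13a4+/- mice and blue points for the 3 wild-type mice. Ctnnb1 (542 TPM) and Apc (368 TPM) stand highest and Tcf7l1 (0.50 TPM) lowest, and for most genes the points of the genotypes lie on top of each other.

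Among the receptors, Fzd3, a Frizzled of axon guidance and tissue polarity, was highest at 52.5 ± 3.36 TPM (SD, n = 6). The co-receptor Lrp6 followed at 28.5 TPM, then Fzd1 at 13.7 TPM and Fzd6 at 7.77 TPM, and the ranges of these 4 did not overlap. From Lrp5 at 4.77 TPM through Fzd9, Fzd4, Fzd2, Fzd10 and Fzd7 to Fzd8 at 3.0 TPM, each neighbour in the order overlapped the next. Fzd5 was lowest at 1.44 TPM and lay below the range of Fzd8.

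Of the ligands, Wnt7b was highest at 19.8 TPM, followed by Wnt4 at 8.42 TPM and Wnt7a at 7.50 TPM, whose ranges overlapped. Wnt5a, a ligand mostly of beta-catenin-independent signalling, was at 5.65 TPM and Wnt10a at 3.14 TPM. Among the secreted proteins, Dkk3, a divergent member of the Dickkopf family, reached 127 TPM. The antagonists Sfrp1 (4.15 TPM) and Sfrp2 (3.74 TPM), which bind Wnt proteins, overlapped, and Wif1, another Wnt-binding inhibitor, was at 1.40 TPM.

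Lgr4, a receptor for R-spondins, was at 23.0 TPM, above the ubiquitin ligase Znrf3 at 7.64 TPM, which removes Frizzled from the membrane. Lgr5 (1.89 TPM), related to Lgr4, and Rnf43 (1.59 TPM), related to Znrf3, had overlapping ranges. Of the cytoplasmic proteins, Gsk3b was at 92.4 TPM, Dvl1 at 61.5 TPM, Axin1 at 15.4 TPM, Dvl3 at 15.0 TPM, Dvl2 at 9.32 TPM and Nkd2, which binds Dishevelled, at 2.65 TPM. Tcf7l2 was the most abundant TCF/LEF factor at 19.0 TPM, ahead of Tcf7 at 1.76 TPM. In the feedback group, Axin2 (18.5 TPM) and Nkd1 (16.5 TPM) overlapped, Lef1 was at 6.99 TPM and Notum, an extracellular enzyme that inactivates Wnt proteins, was at 3.65 TPM.

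The genotypes were then compared on counts, with CPM after TMM scaling for the values of each mouse. None of the 40 genes was called by edgeR or by DESeq2 (which called 0.487% of all genes it tested), with a smallest adjusted p of 0.499 and 0.335. At an unadjusted edgeR p under 0.05, 0 genes were higher and 4 were lower in Slc13a4+/- forebrain (Nkd1, Wnt7a, Fzd1 and Nkd2), which is 10% of the 40 beside 9.15% of all tested genes in either direction, 4.98% higher and 4.17% lower. The groups did not overlap for 7 genes, 17.5% of the 40, beside 15.0% of all tested genes: 2 were higher (Sfrp1 and Dvl2), beside 7.26%, and 5 lower (Fzd1, Fzd5, Wnt7a, Nkd1 and Nkd2), beside 7.70%. In TPM the balance turned: 4 genes were higher without overlap (Wnt5a, Sfrp1, Wif1 and Dvl2), beside 10.6% of all tested genes, and 2 lower (Wnt7a and Nkd1), beside 4.07%, while Fzd1, Fzd5 and Nkd2 overlapped. Pooled over direction, the CPM shares of 10% and 17.5% lay near those over all genes. By direction, all 4 genes at an unadjusted edgeR p under 0.05 were lower, 10% of the 40 beside 4.17% of all tested genes. No test of the list was run, so the counts themselves mark nothing particular to it.

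The log2 fold change was above 0 for 17 genes and below 0 for 23, with a median of -0.01 and a range of -0.24 to 0.18. Over all tested genes the median was 0.00 and 52.2% were below 0. The 95% interval of the log2 fold change lay within 0.5 of 0 for 39 of the 40 genes and within 0.25 of 0 for 25. Without wild-type mouse Nas2Del_WT_1026, 3 genes had a higher and 4 a lower level at an unadjusted p below 0.05, beside 9.43% and 8.60% of all genes (18.0% in either direction), and none was called, beside 1.29% of all genes. The 3 higher genes in that fit were Fzd3 (log2 0.11), Wnt5a (log2 0.17) and Apc (log2 0.12), each of which was highest in Nas2Del_WT_1026 among the wild-type mice. Without Nas2Del_Het_1024, 1 gene was higher and 2 were lower at that threshold, beside 4.81% and 2.61% of all genes. In bulk forebrain, fewer cells of a type and less RNA per cell cannot be told apart.

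**Figure D2:**
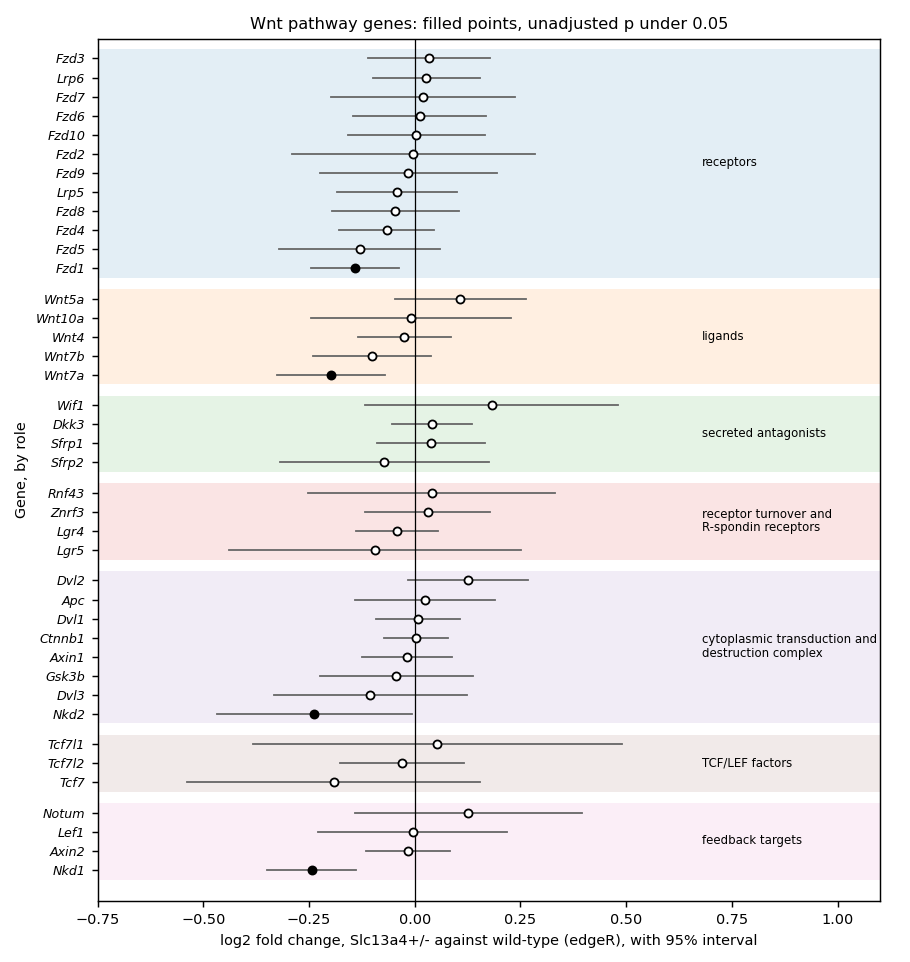
Log2 fold change of each gene in Slc13a4+/- against wild-type forebrain from edgeR (points) with its 95% interval (lines), grouped by role, with filled points for an unadjusted p under 0.05. Nkd1, Nkd2, Wnt7a and Fzd1 are the filled points, at -0.24, -0.24, -0.20 and -0.14, and the other intervals all include 0.

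The feedback targets were read first, since they follow pathway output in many tissues. Axin2 (chr11:108920349-108950783, plus strand), a scaffold of the destruction complex, was at 26.3, 25.7 and 26.2 CPM in Slc13a4+/- mice Nas2Del_Het_1024, Nas2Del_Het_1025 and Nas2Del_Het_1027 and at 26.1, 25.2 and 27.7 CPM in wild-type mice Nas2Del_WT_1016, Nas2Del_WT_1018 and Nas2Del_WT_1026. The Slc13a4+/- values lay inside the wild-type range. The log2 fold change was -0.02 (SE 0.04, 95% interval -0.11 to 0.08), and in DESeq2, which also accounts for transcript length, it was -0.11 (SE 0.10, adjusted p = 0.962).

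Nkd1 (chr8:88521354-88594884, plus strand), the Naked cuticle homolog that binds Dishevelled and dampens the signal, was at 15.7, 15.5 and 14.9 CPM in the Slc13a4+/- mice and at 18.7, 17.6 and 18.2 CPM in the wild-type mice, in the same order of animals. All 3 Slc13a4+/- mice were below all 3 wild-type mice, at 15.4 ± 0.39 against 18.2 ± 0.55 CPM (SD, n = 3 each). The log2 fold change was -0.24 (SE 0.05, 95% interval -0.35 to -0.14), with an edgeR p of 0.00056 and an adjusted p of 0.499. Nkd1 stayed below 0 in all 14 other fits, with values from -0.27 to -0.22 and adjusted p from 0.0924 to 0.858. A single fit called it, edgeR on every gene with at least 1 count (adjusted p = 0.0924). The groups were also apart in TPM, at 14.9 to 15.8 in Slc13a4+/- mice and 16.9 to 18.1 in wild-type mice.

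Lef1, a TCF/LEF factor, was at 8.99, 10.9 and 9.01 CPM in the Slc13a4+/- mice and at 9.52, 8.82 and 10.6 CPM in the wild-type mice. The groups overlapped widely, with a log2 fold change of -0.01 (SE 0.10, 95% interval -0.23 to 0.22), whose sign changed in 6 of the 14 other fits. Notum was at 2.92, 2.75 and 2.31 CPM in the Slc13a4+/- mice and at 2.31, 2.56 and 2.44 CPM in the wild-type mice. Its groups overlapped as well, and its log2 fold change was 0.13 (SE 0.12, 95% interval -0.14 to 0.40).

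The ratio of Nkd1 to Axin2 CPM within a mouse was 0.571 to 0.601 in Slc13a4+/- mice and 0.659 to 0.716 in wild-type mice. The ratio of Nkd1 to Notum was 5.37 to 6.46 against 6.87 to 8.09. Neither pair of ranges overlapped, whereas the ratio of Nkd1 to Lef1 overlapped, at 1.42 to 1.75 against 1.72 to 2.0. These ratios were formed after the Nkd1 values had been seen and are given without a test.

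**Figure D3:**
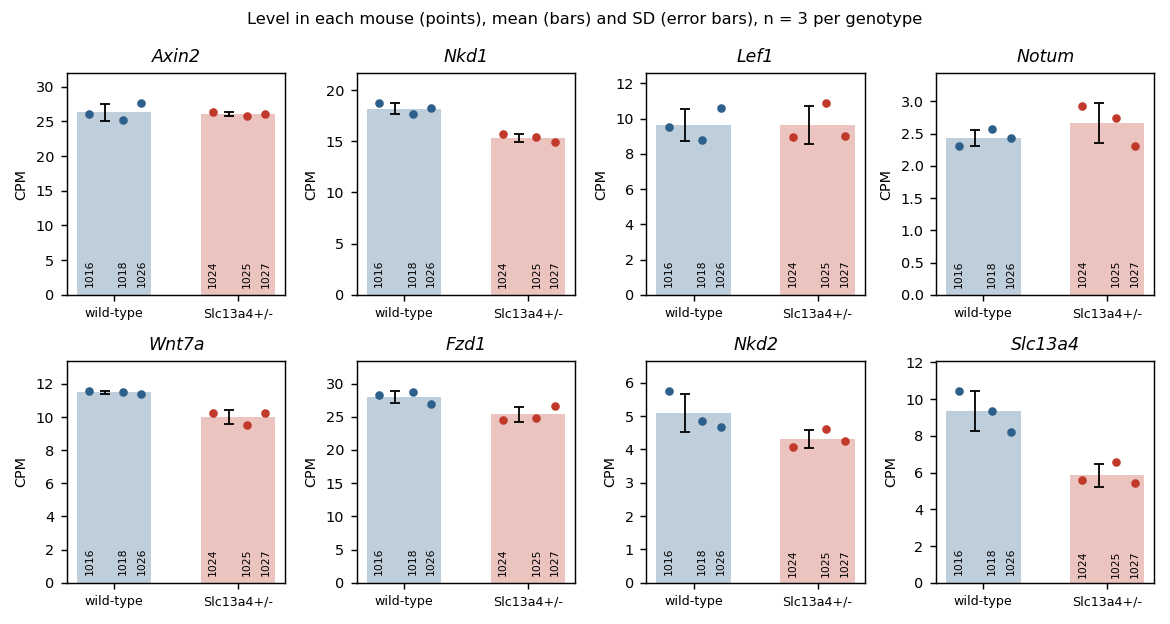
CPM of the 4 feedback targets, of Wnt7a, Fzd1 and Nkd2, and of Slc13a4 in each mouse (points, with the animal number inside the bar), with the mean (bars, from 0) and SD (error bars) of 3 mice per genotype. Nkd1, Wnt7a and Slc13a4 show Slc13a4+/- points below all wild-type points by clear gaps, Fzd1 and Nkd2 by narrow ones, and Axin2, Lef1 and Notum overlap.

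Among the ligands, Wnt7a (chr6:91363981-91411363, minus strand) was at 10.3, 9.53 and 10.2 CPM in the Slc13a4+/- mice and at 11.6, 11.5 and 11.4 CPM in the wild-type mice. The wild-type values were close together and every Slc13a4+/- value was lower. The log2 fold change was -0.20 (SE 0.06, 95% interval -0.33 to -0.07, edgeR p of 0.0066, adjusted p of 0.499), below 0 and at an unadjusted p under 0.05 in all 14 other fits, without a call in any of them (adjusted p 0.165 to 0.858).

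Wnt7b, which shares receptors with Wnt7a, was at 25.6, 24.4 and 28.6 CPM in the Slc13a4+/- mice and at 29.4, 27.7 and 27.3 CPM in the wild-type mice. Mouse Nas2Del_Het_1027 lay inside the wild-type range, and the log2 fold change was -0.10 (SE 0.06, 95% interval -0.24 to 0.04). Wnt5a had a log2 fold change of 0.11 (SE 0.07), Wnt4 of -0.02 (SE 0.05) and Wnt10a of -0.01 (SE 0.10).

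Of the receptors, 5 had a log2 fold change above 0 and 7 below it (median -0.01). Fzd1 (chr5:4753839-4758035, minus strand) was at 24.5, 24.9 and 26.6 CPM in the Slc13a4+/- mice and at 28.3, 28.7 and 26.9 CPM in the wild-type mice. Mice Nas2Del_Het_1027 and Nas2Del_WT_1026 lay next to each other, and on the TPM scale they overlapped. The log2 fold change was -0.14 (SE 0.05, 95% interval -0.25 to -0.04, edgeR p of 0.014, adjusted p = 0.499), and its unadjusted p stayed under 0.05 in 12 of the 14 other fits.

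Fzd3 was at 312, 318 and 330 CPM in the Slc13a4+/- mice and at 296, 296 and 346 CPM in the wild-type mice, where mouse Nas2Del_WT_1026 alone was above the Slc13a4+/- mice. With all mice the difference was log2 0.03 (SE 0.06), and it was log2 0.11 without mouse Nas2Del_WT_1026. Fzd5, the least abundant receptor in TPM, was lower in every Slc13a4+/- mouse, at 4.35 ± 0.32 against 4.76 ± 0.09 CPM, but the log2 fold change of -0.13 had a 95% interval of -0.32 to 0.06. The other 9 receptors overlapped between genotypes, with log2 fold changes from -0.07 for Fzd4 to 0.03 for Lrp6.

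The secreted antagonists had no member at an unadjusted p under 0.05. Dkk3 was at 208, 191 and 199 CPM in the Slc13a4+/- mice and at 191, 196 and 194 CPM in the wild-type mice, with overlap and a log2 fold change of 0.04 (SE 0.04). Sfrp1 was higher in all 3 Slc13a4+/- mice, but only at 8.53 ± 0.16 against 8.30 ± 0.05 CPM, with a log2 fold change of 0.04 (95% interval -0.09 to 0.17). Wif1 had the highest fold change of the 40 genes, at log2 0.18, with a 95% interval of -0.12 to 0.48.

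Receptor turnover genes overlapped between genotypes throughout. Lgr4 was at 51.7, 50.9 and 51.1 CPM in the Slc13a4+/- mice and at 50.2, 52.9 and 55.1 CPM in the wild-type mice, with a log2 fold change of -0.04 (SE 0.04). Znrf3 and Rnf43 differed by log2 0.03 (SE 0.06) and 0.04 (SE 0.13), and Lgr5 by -0.09 (SE 0.15).

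Ctnnb1, the most abundant of the 40 genes, was at 842, 829 and 858 CPM in the Slc13a4+/- mice and at 842, 828 and 854 CPM in the wild-type mice. These ranges nearly coincided, and the log2 fold change of 0.00 had a 95% interval of -0.07 to 0.08, the narrowest of the 40. Axin1 differed by -0.02 (SE 0.05), Apc by 0.02 (SE 0.07), Gsk3b by -0.04 (SE 0.08), Dvl1 by 0.01 (SE 0.04) and Dvl3 by -0.11 (SE 0.10).

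Dvl2 was higher in all 3 Slc13a4+/- mice, at 10.2 ± 0.56 against 9.35 ± 0.21 CPM, with a log2 fold change of 0.13 (SE 0.06, 95% interval -0.02 to 0.27) in edgeR and 0.21 (SE 0.10, adjusted p = 0.688) in DESeq2. Nkd2 (chr13:73818534-73847631, minus strand) was at 4.08, 4.60 and 4.26 CPM in the Slc13a4+/- mice and at 5.75, 4.85 and 4.67 CPM in the wild-type mice. Mice Nas2Del_Het_1025 and Nas2Del_WT_1026 were almost level, and wild-type mouse Nas2Del_WT_1016 was highest. The log2 fold change was -0.24 (SE 0.10, 95% interval -0.47 to -0.01, edgeR p of 0.045, adjusted p = 0.542), and the unadjusted p stayed under 0.05 in 5 of the 14 other fits. Without Nas2Del_WT_1016, the mouse with Ddx3y counts, the log2 fold change of Nkd2 was -0.14 (SE 0.10), and on the TPM scale the Nkd2 groups overlapped.

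The TCF/LEF factors overlapped between genotypes. Tcf7l2 was at 28.1, 28.4 and 24.1 CPM in the Slc13a4+/- mice and at 27.5, 26.5 and 28.2 CPM in the wild-type mice, and mouse Nas2Del_Het_1027 was the lowest of all. Its log2 fold change was -0.03 (SE 0.06). Tcf7 had -0.19 (95% interval -0.54 to 0.16) and Tcf7l1 0.05 (95% interval -0.38 to 0.49), both with few counts.

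Transcripts of each gene were examined next, since a gene total can hide a change of mix. Nkd1 was lower in all 3 of its transcripts. Nkd1-201 was at 7.52, 7.37 and 7.55 CPM in the Slc13a4+/- mice and at 9.40, 7.77 and 9.35 CPM in the wild-type mice. Nkd1-202 was at 2.43 ± 0.22 against 3.19 ± 0.58 CPM and Nkd1-203 at 5.45 ± 0.34 against 6.16 ± 0.19 CPM, each without overlap between the groups. The share of Nkd1 counts on Nkd1-201 was 48.7% ± 1.60 against 48.5% ± 3.85 and overlapped. Salmon divides reads between transcripts with shared exons, so these 3 values are not independent measurements.

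A leading-transcript share could be formed for 28 of the 40 genes, those with at least 2 transcripts and 100 counts in every mouse. Its median was 79.2%, and 5 genes had a leading transcript with under 50% of the counts. The share did not overlap between genotypes for 4 genes (Dvl1, Dvl2, Nkd2 and Wnt7b), beside 13.7% of all genes with such a share. With a minimum of 500 counts, 3 of 20 genes were apart (Dvl1, Dvl2 and Wnt7b), beside 14.3% of all genes. The members' share was near the background at either minimum.

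For Wnt7b, the share of Wnt7b-202 was 67.6% ± 0.68 in Slc13a4+/- mice and 59.7% ± 2.37 in wild-type mice. Wnt7b-204 held 19.0% ± 2.50 against 22.6% ± 1.76, and Wnt7b-201 12.2% ± 1.78 against 16.1% ± 0.59. In CPM, Wnt7b-202 overlapped between the groups, at 17.7 ± 1.62 against 16.8 ± 0.60. The other transcripts were lower in each Slc13a4+/- mouse, at 4.95 ± 0.31 against 6.35 ± 0.58 CPM for Wnt7b-204 and 3.23 ± 0.74 against 4.54 ± 0.21 CPM for Wnt7b-201. These are the transcripts whose coding starts were printed above beside that of Wnt7b-202.

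For Dvl1, the leading coding transcript Dvl1-201 held 46.4% ± 3.95 of the counts in Slc13a4+/- mice and 52.3% ± 1.12 in wild-type mice. Dvl1-206, annotated as a retained intron, held 23.7% ± 1.26 against 19.8% ± 0.99, at 21.2 ± 0.73 against 17.5 ± 0.35 CPM. Dvl2-201 held 63.9% ± 4.77 against 73.3% ± 3.83, and the second transcript Dvl2-202, annotated for nonsense-mediated decay, was at 1.83 ± 0.46 against 1.21 ± 0.21 CPM. In CPM, Dvl2-201 overlapped between the groups (6.52 ± 0.54 against 6.85 ± 0.45), and the retained-intron transcript Dvl2-203 was higher, at 0.92 ± 0.11 against 0.70 ± 0.08. Nkd2-201 held 94.4% ± 3.79 against 98.1% ± 0.66. The share of retained-intron transcripts over the whole library was also higher in every Slc13a4+/- mouse, as given above, and the log2 fold changes without these transcripts were -0.10 (SE 0.05) for Dvl1 and 0.06 (SE 0.06) for Dvl2.

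**Figure D4:**
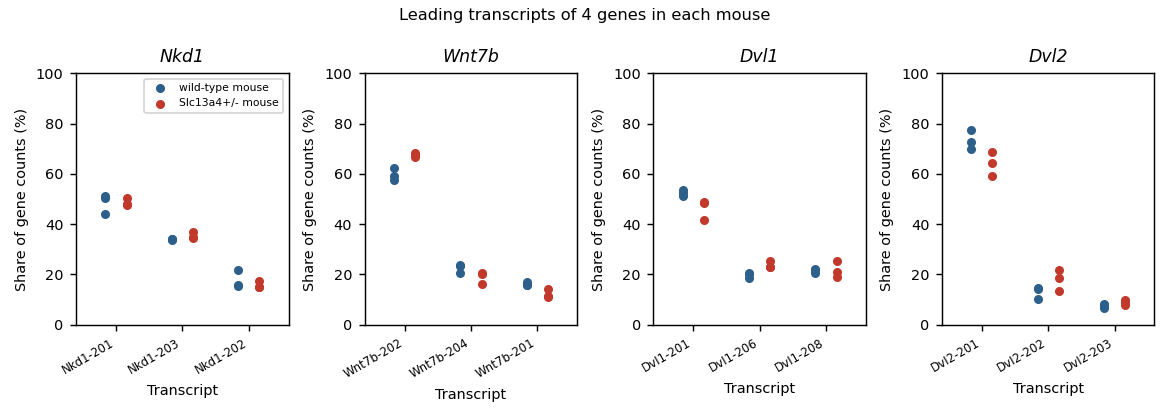
Share of the gene's counts (%) on the 3 most abundant transcripts of Nkd1, Wnt7b, Dvl1 and Dvl2 in each mouse, with blue points for wild-type and red points for Slc13a4+/- mice. Wnt7b-202 and Dvl1-206 lie higher and Dvl1-201 and Dvl2-201 lower in all Slc13a4+/- mice, while the Nkd1-201 share overlaps.

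A wider list of 90 further Wnt pathway genes was read from the same fit, of which 81 were tested. At an unadjusted p under 0.05, 1 was higher and 5 were lower, beside 4.98% and 4.17% of all tested genes, and none was called by either tool (smallest adjusted p 0.502 in edgeR and 0.261 in DESeq2). Of these 81 genes, 28 had a log2 fold change above 0 and 53 below it (median -0.02), where 52.2% of all tested genes were below 0. Wnt9b, a further ligand, was higher at log2 0.27 (SE 0.10, edgeR p of 0.029) and the groups did not overlap. Dact2, a Dishevelled-binding protein, had log2 0.14 (SE 0.06) and Reck, a co-receptor for Wnt7a and Wnt7b on vessels, log2 0.16 (SE 0.08). Both had groups that overlapped in CPM and an edgeR p above 0.05. In TPM both were higher without overlap, beside 10.6% of all tested genes. Dact2 was at 49.4 to 51.4 against 38.4 to 49.0 TPM and Reck at 3.36 to 3.69 against 2.78 to 2.92 TPM. DESeq2 gave Reck log2 0.26 (SE 0.12, DESeq2 p of 0.027, adjusted p = 0.619). Cxxc5 (log2 -0.10, SE 0.03), a Dishevelled-binding zinc finger protein, Tspan12 (log2 -0.11, SE 0.04), a partner of Fzd4, and Prickle1 (log2 -0.09, SE 0.03), a planar polarity protein, were lower without overlap in CPM. In TPM the groups overlapped for Tspan12, at 25.2 to 27.9 against 26.1 to 29.3. Across the 81 genes, 1 was higher and 11 were lower without overlap in CPM, beside 7.26% and 7.70% of all tested genes. Without Nas2Del_WT_1026, 9 genes of the wider list were higher and 5 lower, beside 9.43% and 8.60% of all genes. In that fit the ligand Wnt9a alone of the list was called (log2 0.28, adjusted p = 0.0975 by edgeR), beside 1.29% of all genes. Without Nas2Del_WT_1016, 2 of them were higher and 0 lower by the same measure, beside 3.61% and 2.30% of all genes.

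Levels of cell type markers were set beside these results, with 10 genes in each of 10 lists, all tested and none listed at 0. The summed CPM of choroid plexus markers was 866 to 978 in Slc13a4+/- mice and 1014 to 1041 in wild-type mice, with 4 of 10 genes lower at an unadjusted p under 0.05. Of all tested genes, 4.17% were lower at that threshold. Most of the choroid plexus sum came from Ttr (mean 373 against 433 CPM) and Enpp2 (500 against 549 CPM). The log2 fold changes of the 10 genes ran from -0.32 to -0.02, with Kl at -0.04 and Clic6 at -0.02. Endothelial markers were at 340 to 356 against 361 to 380 CPM (4 of 10 lower), oligodendrocyte precursor markers at 665 to 710 against 731 to 780 CPM (4 of 10 lower) and microglial markers at 427 to 441 against 458 to 470 CPM (5 of 10 lower). These 4 sums did not overlap between the genotypes, and all were lower in Slc13a4+/- mice.

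The sums of astrocyte markers (6120 to 6241 against 6130 to 6704 CPM, 4 of 10 lower), oligodendrocyte markers (8497 to 9913 against 9631 to 10731 CPM, 2 of 10 lower) and olfactory bulb markers (143 to 152 against 143 to 170 CPM, 2 of 10 lower) overlapped. All 10 olfactory bulb markers nevertheless had a log2 fold change below 0, with a median of -0.40 and SEs up to 0.81. All 10 oligodendrocyte markers were also below 0 (median -0.13), as were 8 of 10 astrocyte markers (median -0.05), beside 52.2% of all tested genes. Neuronal markers overlapped at 7955 to 8043 against 7795 to 8375 CPM with none past that threshold. Meningeal markers were at 159 to 163 against 149 to 165 CPM (1 of 10 higher), and thalamic markers at 616 to 672 against 636 to 678 CPM (1 higher and 1 lower). The part of these cell types in the values of the Wnt genes was not tested.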

How the data were processed

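Whole forebrain RNA from 6 mice was sequenced as stranded, rRNA-depleted, paired-end libraries. The authors quantified transcripts with Salmon (1.2.0, per the labels) and deposited estimated counts, TPM and effective lengths for 117135 transcripts per mouse. The deposited TPM values divide each estimate by transcript length and have the same sum in every mouse. Neither the transcript index nor the genome build is named in the sources used here. Identifiers were matched to GENCODE M21 (GRCm38), which placed 115973 transcripts in 35523 genes. The other 1162, with 0.620% to 0.645% of the counts, were left out.

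Estimated counts were summed per gene and rounded. The main test was the quasi-likelihood test of edgeR 4.0.16 (R 4.3.3) with TMM and the default filter, over 17096 genes, with Benjamini-Hochberg adjustment over all of them and a threshold of 0.1. DESeq2 1.42.0 with average transcript lengths as offsets, inferred from the study's use of tximeta, was an alternative. Other alternatives were DESeq2 without and edgeR with these offsets, RLE size factors, a minimum of 1 count or of 50 counts in 3 mice, no retained-intron transcripts, and leaving out each mouse. The fits were tested on simulated data. There edgeR recovered 17 of 67 genes changed 1.2-fold and 59 of 66 changed 2-fold, and DESeq2 27 of 67 and 60 of 66. Most changes of 1.2-fold were thus missed. Of the unchanged genes, 19 were called by edgeR and 36 by DESeq2, and these were false calls. In the measured data edgeR called only 1 gene, and it did not call Slc13a4 at log2 -0.67 (adjusted p = 0.499 by edgeR). The simulated recovery therefore need not hold for the measured data. Python 3.11.15 joined the files.

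The members, the wider Wnt list and the marker lists were chosen with earlier results of these data known, and support nothing by themselves. Values in every mouse are given for Slc13a4, the feedback targets, the member with the highest TPM in each role group and members with an unadjusted p under 0.05. Of the wider list, the genes with the smallest p are named, 3 in each direction, and leading transcripts are named where the groups do not overlap. Other members are named with values to account for all 40. The p-values weigh the difference between genotypes against the spread between 3 mice of each, which both tools estimate with information from all genes. The smallest exact p of 3 against 3 is 0.1, so ranges and shares carry no p.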

Additional observations from a re-analysis of the deposited data

How the results depend on the processing

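No paired analysis was possible because the labels give the mice unique animal numbers and no litter. Of 266 values for the named Wnt genes over 14 alternatives, 253 kept their direction and their side of the adjusted threshold. Among these genes Nkd1 alone crossed it (-0.24 with genes of at least 1 count, which brought the members called to 1). The sign of Lef1 changed with length offsets in DESeq2 (0.0108) and edgeR (0.0126) and without mice Nas2Del_Het_1024, Nas2Del_Het_1027 or Nas2Del_WT_1026 (-0.1017 to 0.0688 when each mouse was left out), and was 0.13 in DESeq2 without mouse Nas2Del_WT_1026, a fit chosen after seeing the data. The log2 value of Ctnnb1 ran from -0.0094 to 0.0142, Tcf7l2 from -0.0726 to 0.0457, Fzd3 from -0.0043 to 0.11 and Axin2 from -0.0460 to 0.0216 when each mouse was left out, and Lgr4 was 0.0033 in the added fit. The cause was not tested.

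Genes called numbered 1 in the main test, 86 and 55 in DESeq2 with and without offsets, 0 in edgeR with offsets, 147 with genes of at least 1 count and 1 to 223 when a mouse was left out, the highest without wild-type mouse Nas2Del_WT_1026, where the added fit gave 720. Members higher at an unadjusted p under 0.05 numbered 1 with offsets in either tool and 3 in the added fit, and 0 to 3 when a mouse was left out, 1 without mouse Nas2Del_Het_1024 and 3 without mouse Nas2Del_WT_1026. Members lower numbered 2 to 5, the fewest without mouse Nas2Del_Het_1024. Of the wider Wnt list, 0 to 1 were called when a mouse was left out (1 without mouse Nas2Del_WT_1026) and 2 in the added fit. Its lower genes numbered 3 in DESeq2 with or without offsets and in the added fit, 2 in edgeR with offsets or with genes of at least 1 count, and 0 to 5 when a mouse was left out (0 without Nas2Del_WT_1016). Its higher genes numbered 3, 4 and 3 in DESeq2 with offsets, edgeR with offsets and genes of at least 1 count, 2 with a minimum of 50 counts or without retained-intron transcripts, 8 in the added fit and 0 to 9 when a mouse was left out (9 without Nas2Del_WT_1026). Over all genes, the share at an unadjusted edgeR p under 0.05 was 9.15% in the main test and 18.0% without Nas2Del_WT_1026. That share is not given for every other fit, so these counts are not read as results about either list. Slc13a4 passed the threshold in DESeq2 with (-0.63) and without offsets (-0.67), with genes of at least 1 count (-0.67) and in the added fit (-0.70), and ran from -0.76 to -0.58 when a mouse was left out, past the threshold only without mouse Nas2Del_WT_1026 (-0.76). Median log2 values of meningeal markers ran from -0.0844 to 0.0423 and of olfactory bulb markers from -0.61 to -0.21. With 3 mice a genotype, the median SE of a member was 0.067 on the log2 scale, and Tcf7l1, Tcf7, Lgr5 and Wif1 had the widest intervals.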
